A study of Canis lupus familiaris with 17 samples.

Results

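CD4, the coreceptor of helper T cells, was followed across all circulating leukocyte classes of 17 dogs. It was found by its symbol, which names 1 of the 20257 genes counted (ENSCAFG00000041713) in the CanFam3.1 matrices of every dog. Leukocytes of client-owned dogs had been separated on a density gradient and freed of red cells, and 1 droplet-based single-cell library had been made per dog. The healthy group held 7 clinically healthy dogs (H1 to H7), and the osteosarcoma (OS) group held 10 dogs with treatment-naive OS (OS1 to OS10). All were pets of more than 1 breed with no engineered genotype, and the OS dogs covered a wider span of ages, so age was also tried as a term of the fits. The values were counts of unique molecular identifiers (UMIs), each of which stands for 1 captured RNA molecule, and they are given as CPM, in which the UMIs of a gene in the cells of a class and dog are scaled to the same total, or as UMIs per cell.

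CD4 is a membrane protein of the immunoglobulin superfamily that binds MHC class II on antigen-presenting cells and brings the kinase LCK to the T cell receptor. In T cells it marks the helper and regulatory lineages, which are set apart from the CD8 lineage in the thymus by the transcription factors ZBTB7B and RUNX3. IL16 is a soluble ligand of CD4. Expression is not limited to T cells: human monocytes carry CD4 at a low level, and canine neutrophils are known to carry CD4 protein on their surface, a trait that human and murine neutrophils lack.

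The matrices held between 7740230 and 56510134 UMIs per dog in 1332 to 7748 barcodes. After low-quality barcodes and likely doublets had been removed, 76258 leukocytes in named classes held 80858 CD4 UMIs. At most 22 barcodes were shared by the matrices of any pair of dogs. One healthy dog stood apart from the others, because neutrophils made up 38.7% of the cells of H7 and between 1.27 and 11% of the cells of OS dogs, so results that rest on H7 are also given without it. CD4 itself was kept out of the genes used for clustering and out of every marker list used for naming.

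Relative to all RNA counted in a class, neutrophils held more CD4 than any other class. Among the healthy dogs the lowest value in neutrophils was 3517 CPM (H1), the median 4050 CPM and the highest 5314 CPM (H2). Among the OS dogs the lowest was 2910 CPM (OS2), the median 3978 CPM and the highest 4846 CPM (OS8). The groups overlapped over most of their range, and every dog's neutrophils lay above every T cell and monocyte value of any dog. Neutrophils with a signature of interferon (IFN) stimulation, counted in 4 dogs with at least 25 such cells, held 3940 CPM ± 648 (SD, n = 4) beside 4029 CPM ± 611 (SD, n = 17) in neutrophils without it. Within the 4 dogs that had both, the difference was -0.04 ± 0.13 (SD) on the log2(CPM + 1) scale and pointed up in 2 and down in the other two.

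CD4 T cells, named from their other genes, held far less. Their level in healthy dogs ran from 155 CPM (H4) over a median of 202 CPM to 289 CPM (H2), and in OS dogs from 98.8 CPM (OS2) over a median of 171 CPM to 203 CPM (OS7). CD4 in neutrophils exceeded that in CD4 T cells of the same dog in 17 of 17 dogs, by 4.48 ± 0.22 (SD) on the log2(CPM + 1) scale or 22.3-fold (p = 1.5e-05, exact sign-flip permutation test, two-sided, the smallest p it can give, adjusted p = 7.6e-05 over 25 class pairs). Neutrophils are small in RNA content, with a median of 1717 UMIs per cell against 5686 in CD4 T cells, and CPM is a share of that content. Counted per cell, neutrophils held 6.85 ± 1.11 CD4 UMIs and CD4 T cells 1.08 ± 0.334 (SD over 17 dogs), and the difference was 2.69 ± 0.35 on a log2 scale.

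**Figure D1:**
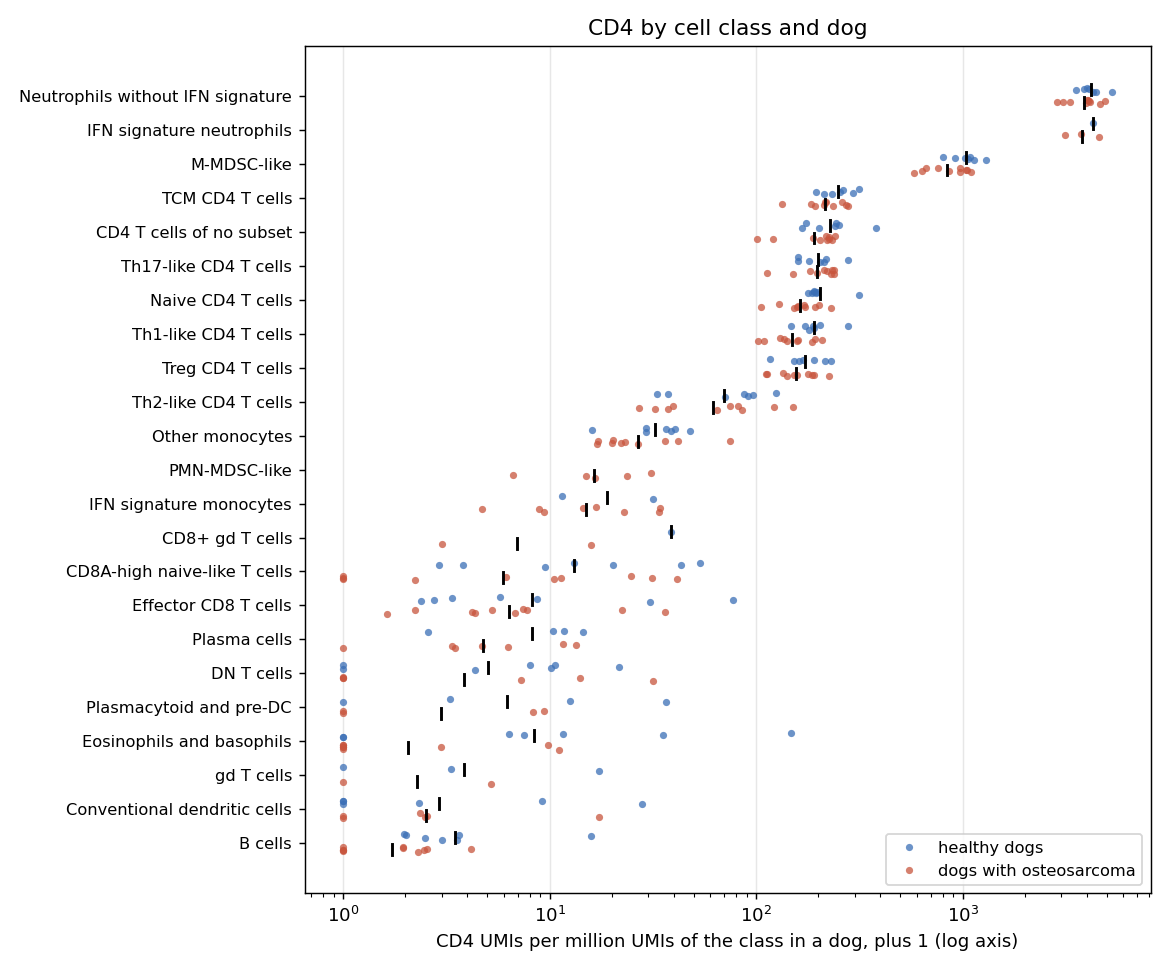
CD4 in CPM plus 1 on a log axis for each cell class, 1 point per dog with at least 25 cells of the class, healthy and OS dogs in separate colors. A bar marks each group's mean, taken on the log scale. Neutrophils stand highest, M-MDSC-like cells next and CD4 T cell subsets below them, and both groups overlap in each of these classes.

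The distribution over single cells differed as much as the mean. Of 5063 neutrophils, 97.9% held at least 1 CD4 UMI and 68.6% held 5 or more, with a median of 6 and a highest count of 43. Of 26485 CD4 T cells, 49.0% held at least 1 and 3.77% held 5 or more, although their median depth was higher. In B cells, which should lack CD4, 0.713% of 7012 cells held a UMI at a median depth of 4024 UMIs, which serves as a background. The parts of RNA free in the droplets and of doublets in this background were not tested. The share of B cells with a CD4 UMI differed between dogs, from 0% in 4 OS dogs to 3.17% in H7. CD3E, a chain of the T cell receptor complex, was found in 1.27% of the neutrophils that held CD4 and in 97.2% of such CD4 T cells, and CD8A in 0.645% and 0.925% of them.

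**Figure D2:**
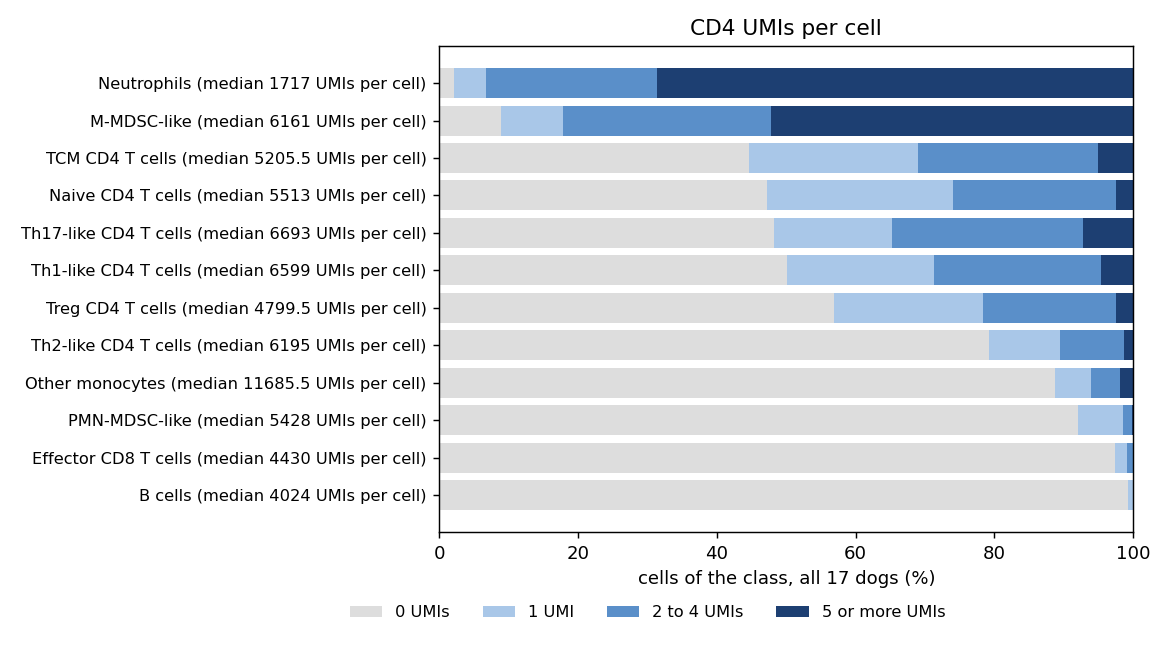
Share of cells of 12 classes, in percent, that held no CD4 UMI, 1, 2 to 4, and 5 or more, all dogs pooled, with the median UMIs per cell of the class beside its name. Of neutrophils 68.6% and 52.2% of M-MDSC-like cells fall in the highest bin, against 7.31% of Th17-like cells, the highest of the CD4 T cell subsets shown.

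Granulocytes outside the neutrophil class did not share the high level. Eosinophils and basophils held 25 CD4 UMIs in 2336 cells (5.96 CPM pooled over dogs), and 0.514% of them held any. Cells named PMN-MDSC-like (after polymorphonuclear myeloid-derived suppressor cells, a name given to immature neutrophils found in cancer) held 66 CD4 UMIs in 633 cells, and 7.90% of them held any, at a median depth of 5428 UMIs. At least 25 such cells were present in 5 dogs, all with OS, where CD4 stood at 17.6 CPM ± 9.22 (SD, n = 5), from 5.67 CPM in OS2 over a median of 15.5 CPM to 30.0 CPM in OS5. The neutrophils of the same 5 dogs held 3749 CPM, and CD4 was lower in the PMN-MDSC-like cells of 5 of 5 dogs, by -7.81 ± 0.70 (SD) on the log2(CPM + 1) scale. With 5 dogs the exact sign-flip permutation test cannot go below its value here, p = 0.0625 (two-sided, adjusted p = 0.195). With a minimum of 10 cells, 8 dogs entered and the difference was -7.66 ± 1.02 (p = 0.0078, the smallest the exact test can give with 8). The study drew its PMN-MDSC list on these dogs, from a neutrophil cluster that it described as lacking CD4. PMN-MDSC-like cells named by that list are therefore not independent of CD4, and these p-values are no independent support. Genes abundant in granulocytes were high in the same cells: S100A12 and S100A8, which encode calcium-binding proteins of the cytosol, stood at 477% and 393% of their level in the neutrophils of the same dogs, and CAMP, the precursor of a cathelicidin stored in granules, at 40866 CPM against 5.8 CPM in neutrophils. Of the 11 neutrophil markers used for naming, 10 kept a larger share of their neutrophil level there than CD4, which kept 0.459%. Of these genes CAMP was on the list that named the class. S100A12 was on the study's PMN-MDSC list but not on the shortened list used for naming here. Its level is therefore not independent of how the study defined these cells. S100A8 and the other neutrophil markers were on neither list. All these levels are a description.

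Among mononuclear myeloid cells, CD4 marked a minority. M-MDSC-like cells (the monocytic counterpart, a cluster of 1543 cells that held monocyte and neutrophil genes together) had CD4 between 805 CPM (H1) and 1290 CPM (H4) in healthy dogs, median 1058 CPM. In OS dogs the range was 580 CPM (OS2) to 1103 CPM (OS8), median 917 CPM, and overlapped that of healthy dogs. All other monocytes together held 30.0 CPM ± 14.7 (SD, n = 17), between 14.6 CPM (H6) and 73.5 CPM (OS3). CD4 was higher in M-MDSC-like cells than in the other monocytes of the same dog in 17 of 17 dogs, by 5.02 ± 0.61 (SD) on the log2(CPM + 1) scale or 32.4-fold (p = 1.5e-05, exact sign-flip permutation test, adjusted p = 7.6e-05). The study drew its M-MDSC list on these dogs, from a cluster that it described as CD4-positive monocytes. A class named by that list is not independent of CD4, although CD4 was left out, so this p is no independent support. Of the M-MDSC-like cells 91.1% held a CD4 UMI, and 52.2% held 5 or more. Per cell they held 6.12 ± 1.38 CD4 UMIs (SD over 17 dogs), close to the count in neutrophils, at a median depth of 6161 UMIs.

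The M-MDSC-like cluster carried neutrophil genes in general, and its CD4 level is therefore set beside theirs. CD4 reached 23.5 ± 3.91% (SD, n = 17) of its level in neutrophils of the same dog. The 11 neutrophil markers reached a median of 39.1%, from 9.33% for IL1R2 to 53.7% for SGK1, and 7 of them kept a larger share than CD4. Among the 11, S100A12 and CSF3R were also on the list that named the cluster, so their levels there are not independent of the naming. In the monocytes outside the IFN and M-MDSC-like clusters, CD4 reached 0.783% and the 11 markers a median of 8.83%, with 10 above CD4. Monocyte genes were present in the M-MDSC-like cells too: LYZ, which encodes lysozyme, was at 18042 CPM beside 20940 CPM in other monocytes and 2004 CPM in neutrophils, and CSF1R, the receptor of the monocyte growth factor CSF1, at 192 CPM beside 256 CPM and 45.1 CPM. With doublets kept, the difference from other monocytes was 4.79 ± 0.58. The part that droplets holding a monocyte and a neutrophil could have in this level was not tested.

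The remaining monocytes were not uniform, and they are compared by cluster number. Each cluster was also scored against the other monocyte clusters, as the mean log2 difference in CPM, on the lists that the study gave for CD4-positive and CD4-negative monocytes, from which CD4 had been taken out. The CD4-positive list scored below the other list in clusters 1 (-0.48 against 0.33) and 3 (-0.10 against 0.41) and close to it in clusters 2 (0.28 against 0.35) and 5 (-0.060 against -0.0042), whereas in the M-MDSC-like cluster it scored above (0.43 against -0.73). It also scored above in cluster 21 (0.61 against -0.51), 46 cells with CD4 at 126 CPM pooled over dogs, and was close to the other list in IFN signature monocytes (0.18 against 0.23). Cluster 11 had the lowest score on the CD4-positive list (-0.86 against -0.071) with CD4 at 16.2 CPM, above clusters 1 and 3, so the scores did not follow CD4 in every cluster. The study chose these lists on these dogs, so the scores are a description. Clusters 2 and 5 held 78.9 CPM ± 32.6 and 70.1 CPM ± 41.2 (SD, n = 17), whereas clusters 1 and 3 held 2.48 CPM ± 1.87 and 2.55 CPM ± 1.81. A CD4 UMI was found in 25.8% of the cells of cluster 2 and 16.9% of those of cluster 5, so most of their cells held none. CD4 was higher in cluster 2 than in cluster 1 of the same dog in 17 of 17 dogs (24.7-fold) and higher in cluster 5 than in cluster 1 in 17 of 17 (19.1-fold), which is given as a description because these pairs were seen before they were chosen. Cluster 2 was led, against the other monocytes, by S100A12, LTF (lactoferrin, a protein of neutrophil granules), THBS1 and SERPINB2. Cluster 1 was led by the metallothionein gene MT2A and by S100A5. Cluster 5 was led by ENSCAFG00000030286 and ENSCAFG00000032615, which also led the cluster of erythrocytes. In clusters 1 and 3, CD4 lay above that of the dog's own B cells in 11 of 17 dogs, whereas in clusters 2 and 5 it lay above in 17 of 17. IFN signature monocytes held 17.8 CPM ± 11.1 (SD, n = 10), above their own B cells in 10 of 10 dogs.

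Monocytes taken as 1 class held 87.4 CPM ± 25.3 (SD, n = 17), lower than the CD4 T cells of the same dog in 17 of 17 dogs, by -1.07 ± 0.53 on the log2(CPM + 1) scale (p = 1.5e-05, exact sign-flip permutation test, adjusted p = 7.6e-05). Per cell the values were close, 0.951 ± 0.257 CD4 UMIs in monocytes and 1.08 ± 0.334 in CD4 T cells, and that difference, -0.18 ± 0.46 on a log2 scale, was not past the threshold (p = 0.130, exact permutation test). A monocyte held a median of 11103 UMIs, more than a CD4 T cell, and CPM is relative to that total. M-MDSC-like cells were 1543 of the 14450 monocytes and held 8707 CD4 UMIs.

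The subsets of CD4 T cells graded from TCM down to Treg, and Th2-like cells lay lower. Central memory (TCM) cells held 233 CPM ± 45.5, cells assigned to no subset 213 CPM ± 60.1, Th17-like cells 201 CPM ± 40.5 and naive cells 183 CPM ± 44.7 (SD, n = 17 each). The cells of no subset joined 2 unlike clusters, T cluster 7 at 251 CPM ± 69.0 (SD, n = 17) and T cluster 15, a cluster of 488 cells that scored highest on the Th2-like list, at 29.5 CPM ± 31.5 (SD, n = 6), below Th2-like cells. Th1-like cells held 169 CPM ± 42.5 and regulatory T cells (Treg) 165 CPM ± 37.1. Neighbors in this order differed by less than the spread of their difference over dogs, from 0.16 ± 0.31 (SD) on the log2(CPM + 1) scale for TCM against cells of no subset to 0.03 ± 0.38 for Th1-like cells against Treg. From end to end, CD4 was higher in TCM than in the Treg of the same dog in 17 of 17 dogs, by 0.50 ± 0.25. The order was set by these same values, so its steps and its ends are a description with no test. Th2-like cells stood apart at 72.9 CPM ± 36.6, from 26.1 CPM in OS2 to 149 CPM in OS6. CD4 was lower in them than in the Treg of the same dog in 17 of 17 dogs, with a difference of Treg minus Th2-like of 1.32 ± 0.72 on the log2(CPM + 1) scale. A CD4 UMI was found in 20.7% of Th2-like cells and 43.1% of Treg at median depths of 6195 and 4799.5 UMIs, so the shallower class had the larger share. CD3E was at 856 CPM in Th2-like cells and 1067 CPM in Treg, GATA3, the transcription factor of the Th2 lineage, at 265 CPM and 266 CPM, and CD8A at 12.6 CPM and 5.0 CPM. Whether cells outside the CD4 lineage lay in the Th2-like clusters was not tested.

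From the highest level to the lowest, the order of the 23 classes ran from neutrophils over M-MDSC-like cells, the CD4 T cell subsets and Th2-like cells to other monocytes, and then to 12 classes of lower level, down to B cells. The steps from M-MDSC-like cells to TCM (2.0 ± 0.27 on the log2(CPM + 1) scale, 17 of 17 dogs), from Treg to Th2-like cells and from Th2-like cells to other monocytes (1.17 ± 0.96, 15 of 17 dogs) were larger than the spread over dogs, and are likewise a description. CD8A-high naive-like T cells held 15.3 CPM ± 16.8 and effector CD8 T cells 12.5 CPM ± 19.3 (SD, n = 17). Of the 490 CD4 UMIs in effector CD8 T cells, 334 lay in 1 of its 4 clusters, T cluster 4, at 27.9 CPM pooled over dogs beside 18.97 CPM in cluster 18 (24 UMIs), 3.35 CPM in cluster 1 and 3.08 CPM in cluster 13, and 167 of the 334 were from 219 cells of H7. Double negative (DN) T cells held 7.70 CPM ± 9.37 (n = 13, 5 at 0), plasma cells 6.56 CPM ± 4.87 (n = 11), and plasmacytoid and precursor dendritic cells 8.16 CPM ± 12.0 (n = 8, 3 at 0). Conventional dendritic cells held 4.77 CPM ± 8.5 (n = 12, 5 at 0) and lay above their own B cells in 6 of 12 dogs. B cells held 2.05 CPM ± 3.42 (n = 17, 4 at 0).

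Of 9 low classes counted in H7, this dog was the highest of the healthy dogs in 6 and the highest of all dogs in 5. In some of the 6, few healthy dogs were counted. H7 was 1 of 2 in IFN signature monocytes. It was 1 of 4 in plasma cells and in plasmacytoid and precursor dendritic cells. Its effector CD8 T cells held 76.0 CPM beside 7.90 CPM ± 10.8 (SD) in the other 6 healthy dogs, its B cells 14.8 CPM beside 1.78 CPM ± 0.740, its conventional dendritic cells 26.9 CPM beside 1.91 CPM ± 3.57 in the 5 others counted, and its plasmacytoid and precursor dendritic cells 35.7 CPM beside 4.64 CPM ± 6.15 in the 3 others counted. Without H7 the means over all dogs fell to 8.49 CPM ± 10.6 (SD, n = 16) in effector CD8 T cells, 1.25 CPM ± 0.989 (n = 16) in B cells, 2.76 CPM ± 5.11 (n = 11) in conventional and 4.22 CPM ± 4.80 (n = 7) in plasmacytoid and precursor dendritic cells. The dendritic values rest on few molecules. In all healthy dogs, conventional dendritic cells held 24 CD4 UMIs in 8 cells, and plasmacytoid and precursor dendritic cells 32 in 7 cells. Over all dogs, a single cell of these classes held up to 15 and 12 CD4 UMIs. In the B cells of H7, CD4 stood at 0.336% of its level in that dog's neutrophils, and the 11 neutrophil markers stood at a median of 0.269% of theirs. In the other dogs CD4 in B cells was at 0.0305% of neutrophils on average and the 11 markers at a median of 0.110%. These CD4 values rest on few molecules, since the B cells of all dogs held 65 CD4 UMIs in 50 cells. A single B cell of H7 held 11 of them, so the gap in CD4 is not ranked against that of the markers. In CD8A-high naive-like T cells H7 did not stand high, with 12.2 CPM beside 21.2 CPM ± 21.5 in the other 6 healthy dogs. Its 50 eosinophils and basophils held 0 CD4 UMIs, which at their depth allows up to 38.5 CPM (3 counts), so no difference was detectable there. The part of the high neutrophil share of H7 in these values was not tested.

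Of the genes with which CD4 works in T cells, some were close to 0 in the myeloid cells that held CD4 and others were not. LCK, the kinase bound by the tail of CD4, was at 87.1 CPM in CD4 T cells, 0.9 CPM in neutrophils and 0.5 CPM in M-MDSC-like cells. ZAP70, the kinase that follows LCK, was at 80.8 CPM, 2.0 CPM and 0.9 CPM in the same classes. CD3E was at 898 CPM in CD4 T cells and 7.6 CPM in neutrophils. By contrast LCP2 (SLP-76), an adapter used by T cells and myeloid cells, was at 337 CPM in neutrophils and 191 CPM in CD4 T cells, and CSK, the kinase that restrains SRC-family kinases, at 128 CPM and 122 CPM. CD8A, the other coreceptor, was at 169 CPM in CD8A-high T cells, 5.9 CPM in CD4 T cells and 5.3 CPM in neutrophils.

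Ligands of CD4 and the transactivator CIITA were distributed otherwise. DLA-DRA, the canine MHC class II alpha chain, was at 11448 CPM in conventional dendritic cells, 4685 CPM in B cells, 3636 CPM in other monocytes and 2224 CPM in M-MDSC-like cells, and at 78.5 CPM in neutrophils. It was at 1147 CPM in CD4 T cells, which in dogs carry MHC class II. CIITA, its transactivator, was at 308 CPM in B cells, 277 CPM in conventional dendritic cells, 82.4 CPM in M-MDSC-like cells and 4.8 CPM in neutrophils. IL16 was at 269 CPM in neutrophils, 143 CPM in M-MDSC-like cells and 153 CPM in CD4 T cells. The M-MDSC-like class held RNA of both CD4 and DLA-DRA.

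The regulators that set the CD4 lineage apart in the thymus did not follow CD4. ZBTB7B was at 8.2 CPM in neutrophils, 12.5 CPM in M-MDSC-like cells, 7.3 CPM in other monocytes and 4.8 CPM in CD4 T cells. RUNX3, which acts on the CD4 silencer in CD8 T cells, was at 78.9 CPM in CD8A-high T cells, 21.2 CPM in CD4 T cells, 2.2 CPM in neutrophils and 1.7 CPM in other monocytes. TCF7, LEF1 and BCL11B, factors of T cell development, were at 163 CPM, 1302 CPM and 364 CPM in CD4 T cells and at 1.4 CPM, 8.2 CPM and 1.3 CPM in neutrophils. RUNX1 was found in all of these classes, with 339 CPM in neutrophils and 824 CPM in CD4 T cells. Of the genes beside CD4 in the order of the RefSeq assembly UU_Cfam_GSD_1.0, LAG3, a relative of CD4 that binds MHC class II too, was at 5.8 CPM in neutrophils, 10.0 CPM in conventional dendritic cells and 4.6 CPM in CD4 T cells. GPR162, on the other side, was at 15.2 CPM in neutrophils and 4.4 CPM in M-MDSC-like cells, with 0.3 CPM in CD4 T cells.

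**Figure D3:**
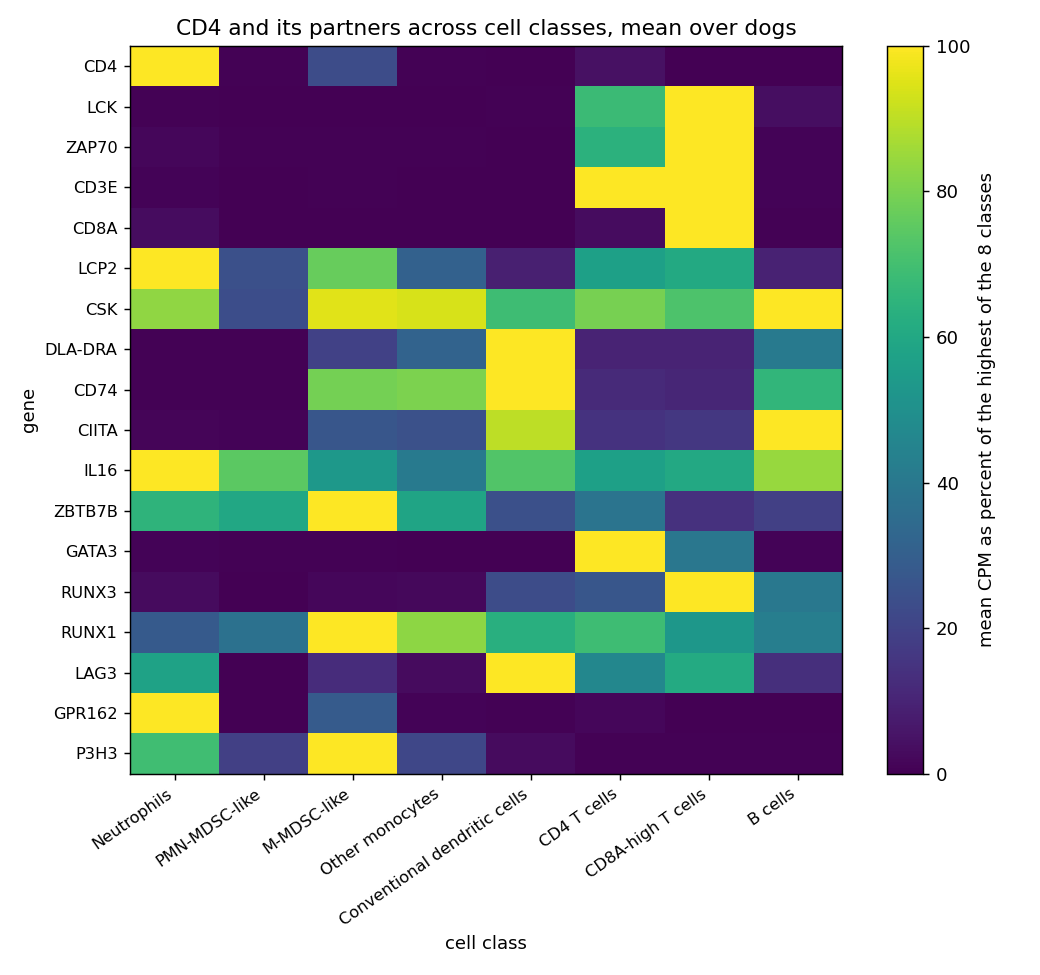
Mean CPM over dogs of CD4, its signaling partners, genes of the ligand list, lineage regulators and chromosomal neighbors in 8 classes, each gene drawn in percent of its highest class, so colors compare classes within a gene and not genes with each other. The row of CD4 is brightest in neutrophils, where LCK, at 0.9 CPM beside 128 CPM in CD8A-high T cells, is dark.

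The genes whose mean log2(CPM + 1) over the 23 classes was most like that of CD4, among 10076 genes of at least 10 CPM in their highest class, were GFOD2 (Pearson's r = 0.857), ZBTB24 (0.811), ADAMTSL4 (0.801), LAMB3 (0.798) and ADTRP (0.795). Over the 9 myeloid classes alone, among 8946 genes, they were TUT7 (0.986), C4BPB (0.984), CYP4F22 (0.982), STK24 (0.982) and FFAR2 (0.971), the last a receptor of short-chain fatty acids. These correlations are across classes that share dogs and libraries, and are a description. CYP4F22, for example, was at 2508 CPM in neutrophils, 555 CPM in M-MDSC-like cells and 6.53 CPM in other monocytes.

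The CD4 RNA of a sample came in different parts from neutrophils, T cells and monocytes in different dogs. Neutrophils held a median of 30.7% of a dog's CD4 UMIs (14.9 to 87.6%), while making up a median of 4.30% of its cells and 1.19% of its UMIs. CD4 T cells held a median of 43.0% (5.38 to 61.8%) with 34.7% of cells, and monocytes 16.2%, of which the M-MDSC-like cells, 2.01% of cells, held 11.3% of all CD4 UMIs. Neutrophils held more CD4 UMIs than CD4 T cells in 1 of 7 healthy dogs (H7) and in 3 of 10 OS dogs. The share held by neutrophils was 38.6 ± 22.6% in healthy and 34.4 ± 14.2% in OS dogs (SD; p = 0.887, exact Wilcoxon rank-sum test, two-sided, adjusted p = 0.887 over 3 classes), and 30.5 ± 7.10% in healthy dogs without H7. The share held by monocytes was 14.8 ± 6.75% and 21.3 ± 9.56% (p = 0.193, adjusted p = 0.58, exact test), beside 15.5 and 21.4% of cells (p = 0.109). For CD4 T cells the shares were 42.7 ± 17.9% and 39.8 ± 12.6% (p = 0.475, adjusted p = 0.712, exact test), and the difference of -2.84 percentage points became -9.05 without H7 (unadjusted p = 0.181, exact test).

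**Figure D4:**
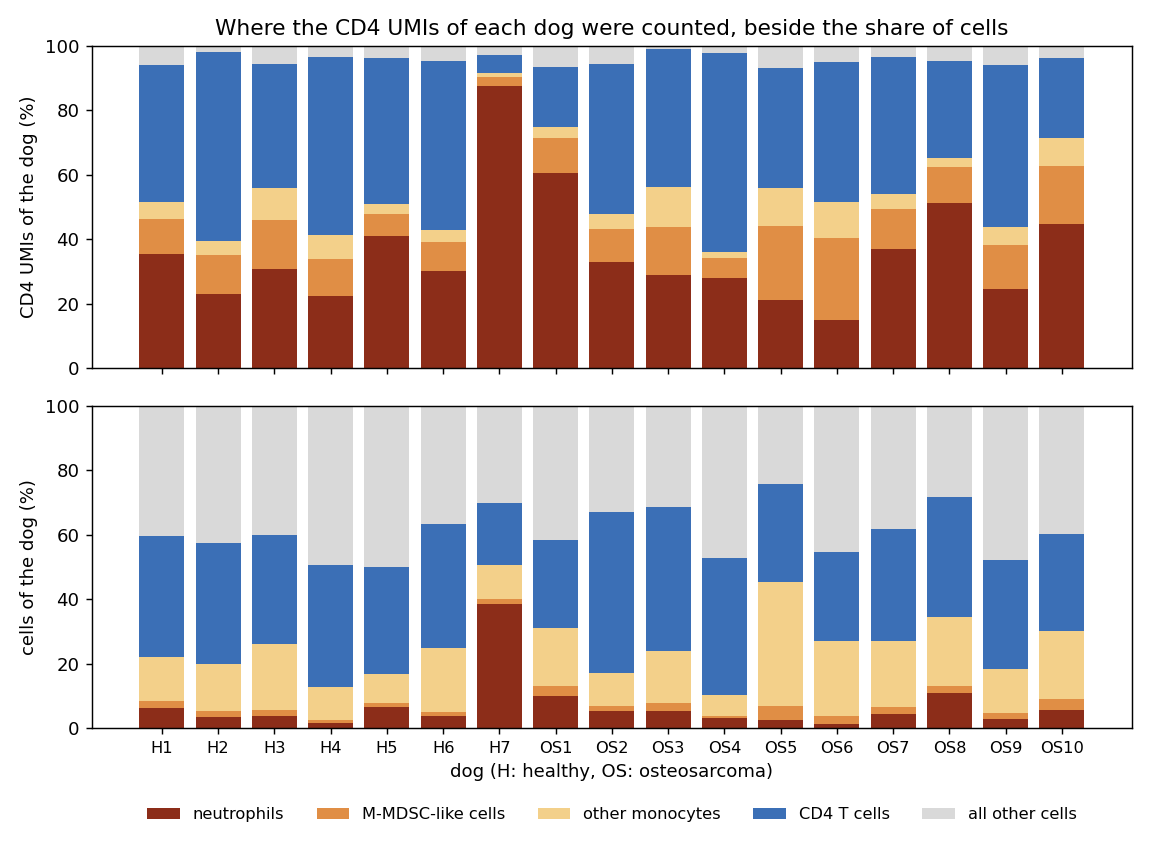
Percent of each dog's CD4 UMIs held by neutrophils, M-MDSC-like cells, other monocytes, CD4 T cells and all other cells, 1 stacked bar per dog from 0 to 100% (upper panel), with the percent of its cells in the same classes (lower panel). Neutrophils hold 87.6% in H7 and between 14.9 and 60.5% in OS dogs.

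Whether CD4 within a class differed between OS and healthy dogs was tested on counts summed per dog. In no class was CD4 called by edgeR's quasi-likelihood test (a Benjamini-Hochberg adjusted p under 0.01 with a log2 fold change beyond 0.58 either way), over 31 classes and clusters fitted, and the lowest adjusted p was 0.336. The test called 0 of 16258 genes over all cells (percent called 0), 936 of which had an unadjusted p under 0.05. Over the same genes 3 were called by DESeq2 (0.0185%). In simulated sums over all cells the test recovered 91% of genes changed by 2 on the log2 scale and 52% of those changed by 1. The changes were placed only in genes well above the minimum count of the fits. Single classes, which hold fewer counts, were not simulated, so these shares do not give the recovery there.

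In neutrophils the log2 fold change of CD4 was -0.13 (SE 0.14), from 4210 CPM ± 567 in healthy to 3867 CPM ± 614 in OS dogs (SD), with an adjusted p of 1.00 by edgeR. No gene was called there by edgeR (0 of 9777, percent called 0, 438 with an unadjusted p under 0.05) or by DESeq2 (0). A fit with the replicate number as a block called 9 (0.0946%), CD4 not among them. That fit also left out OS8 to OS10, so it differs from the main fit in its dogs too. In M-MDSC-like cells the log2 fold change was -0.22 (SE 0.14, adjusted p = 0.901 by edgeR) and in all monocytes -0.09 (SE 0.19, adjusted p = 0.952). Of 14038 genes tested in monocytes edgeR called 0 (percent called 0, 842 with an unadjusted p under 0.05), where DESeq2 called 2 (0.0142%). A p above the threshold does not show that CD4 was alike in both groups.

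In CD4 T cells the log2 fold change was -0.22 (SE 0.12), with an unadjusted p of 0.0886 and an adjusted p of 0.988 by edgeR. Of 14497 genes both edgeR (percent called 0, 519 with an unadjusted p under 0.05) and DESeq2 called 0. The subsets lay between -0.28 (SE 0.14) in Th1-like cells and 0.02 (SE 0.15) in Th17-like cells, and the naive cells at -0.25 (SE 0.12, unadjusted p = 0.0503). The share of CD4 T cells with a CD4 UMI, after each cell was thinned to 1000 UMIs, was 17.3 ± 2.94% in healthy dogs (13.8% in H4 to 23.0% in H2) and 14.4 ± 2.54% in OS dogs (8.92% in OS2 to 16.9% in OS7), with overlap (p = 0.0431, adjusted p = 0.129 over 3 classes, exact Wilcoxon rank-sum test). At full depth the shares were 53.4 ± 8.56% and 46.6 ± 5.88% (p = 0.109, exact test). Thinned shares in neutrophils were 95.7 ± 1.71% and 94.1 ± 3.29% (p = 0.536, exact test), in monocytes 9.38 ± 2.14% and 9.21 ± 2.55% (p = 0.364, exact test), and in B cells, as background, 0.276 ± 0.310% and 0.0742 ± 0.0798%. The background in healthy dogs rested on H7, at 0.95% beside 0.0624 to 0.290% in the others.

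**Figure D5:**
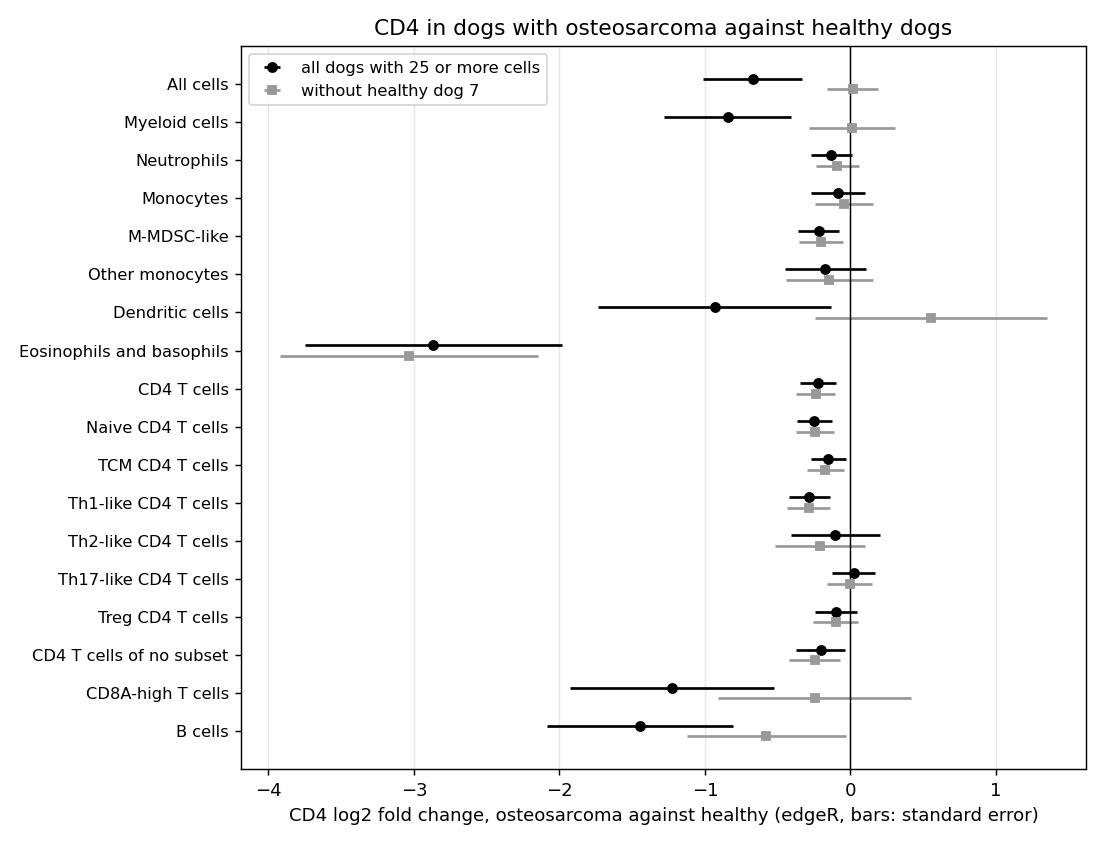
Log2 fold change of CD4, OS against healthy dogs, with its standard error as a bar, with all dogs (black circles) and without H7 (gray squares). A selection of the classes fitted by edgeR is drawn, without the monocyte clusters and the separate dendritic cell classes, among others. Points for neutrophils, M-MDSC-like cells, monocytes and CD4 T cells lie between -0.22 and -0.09 with all dogs, and the points for all cells and myeloid cells move to 0.01 without H7.

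Sums that mix classes depended on H7. Over all cells CD4 was at 230 CPM ± 224 in healthy and 141 CPM ± 42.9 in OS dogs (SD), with a log2 fold change of -0.67 (SE 0.34, adjusted p = 0.851 by edgeR), and without H7 it was 0.01. Over myeloid cells it was -0.84 (SE 0.43, adjusted p = 0.855) with H7 and 0.01 without it, and there edgeR called 0 of 14657 genes (percent called 0, 846 with an unadjusted p under 0.05) and DESeq2 1 (0.00682%). Among the classes of low level, eosinophils and basophils had the lowest p, with a log2 fold change of -2.87 (SE 0.88, unadjusted p = 0.00216, adjusted p = 0.336 by edgeR), on 25 CD4 UMIs in 2336 cells, of which 7 were in 37 cells of H6. In that class 1 of 8650 genes was called (percent called 0.0116). Differences between classes of the same dog did not differ between the groups past the threshold. The difference of neutrophils minus CD4 T cells was 4.38 ± 0.24 in healthy and 4.54 ± 0.20 in OS dogs (p = 0.193, adjusted p = 0.58 over 3 pairs, exact Wilcoxon rank-sum test), and M-MDSC-like minus other monocytes 5.02 ± 0.49 and 5.02 ± 0.71 (p = 0.887, exact test).

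The partners of CD4 were tested in the same fits. The ligand list also held CD74 and the transactivator CIITA, among others, so not every member of it is itself a ligand. In CD4 T cells, 0 of 12 measured genes of coreceptor and receptor signaling, 0 of 7 genes of the ligand list, 0 of 12 lineage regulators and 0 of 5 chromosomal neighbors were called in either direction by edgeR or by DESeq2, and 0 of each list had an unadjusted p under 0.05, beside 3.58% of all genes by edgeR and 3.44% by DESeq2. Their median log2 fold changes were 0.05, 0.07, -0.07 and 0.17, beside 0.00016 over all genes tested. LCK was at -0.20 (SE 0.13), from 96.2 CPM in healthy to 80.8 CPM in OS dogs, ZBTB7B at -0.10 (SE 0.17), DLA-DRA at 0.07 (SE 0.13) and RUNX3 at 0.05 (SE 0.16). In neutrophils 0 of 10 signaling genes, 0 of 6 genes of the ligand list, 0 of 12 regulators and 0 of 6 neighbors were called by either tool. Of these genes 1, a regulator, had an unadjusted p under 0.05, beside 4.48% of all genes by edgeR and 3.05% by DESeq2. IL16 was there at -0.09 (SE 0.14) and LAG3 at 0.98 (SE 0.52). In monocytes 0 of 12, 7, 12 and 6 genes of these lists were called by either tool, with 1 gene of the ligand list and 1 regulator at an unadjusted p under 0.05 by edgeR (1 and 2 by DESeq2), beside 6.0% of all genes by edgeR and 6.08% by DESeq2, a share near that of the listed genes. RUNX3 was there at -0.84 (SE 0.36), from 2.27 CPM in healthy to 1.18 CPM in OS dogs.

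Genes of neutrophil immaturity, which named the PMN-MDSC-like cells that lacked the high CD4 level, had 0 of 9 members called over all cells by edgeR and by DESeq2, with 6 and 8 at an unadjusted p under 0.05, beside 5.76% and 6.36% of all genes tested. Their median log2 fold change was 2.03 by edgeR, beside -0.0049 over all genes. The study drew these genes on these dogs, as markers of a population that it reported as expanded in OS. Of the 633 PMN-MDSC-like cells, 580 were from OS dogs. The genes go together as markers of 1 population, so their counts and median are a description and no independent support. PGLYRP1, a granule protein, was at 3.22 (SE 1.14) over all cells, from 14.0 CPM in healthy to 124 CPM in OS dogs. In CD4 T cells 0 of 8 measured members were called by either tool, and 5 by edgeR and 3 by DESeq2 had an unadjusted p under 0.05 (3.58% and 3.44% of all genes), at levels such as 0.166 CPM in healthy and 0.980 CPM in OS dogs for PGLYRP1. At least 25 PMN-MDSC-like cells were present in 5 of 10 OS dogs and in 0 of 7 healthy dogs, and the part of RNA free in the droplets in these values was not tested.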

How the data were processed

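Whole-transcriptome counts of UMIs per gene and cell barcode were deposited by the authors, 1 filtered matrix per dog, without normalization. The submitters' processing notes name Cell Ranger 7.0.0, CanFam3.1 and Seurat, and whether intronic reads were counted in these matrices is not given in the sources used here. Droplet libraries read the 3′ end of RNA, so a CPM value compares classes within a gene and not genes with each other.

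Barcodes were kept with 200 to 4500 genes, 500 to 20000 UMIs and at most 10% mitochondrial counts (84345 of 93013). Scrublet scores, computed with scanpy 1.11.5, removed 3938 doublets at 0.8% per 1000 cells. Cells were clustered at 2 levels on 2000 variable genes and 30 principal components, after a correction across dogs that follows the model of Harmony in purpose-written code, with 20 neighbors and the Leiden method (leidenalg 0.10.2, resolution 1.0, seed 1). CD4, ribosomal protein genes and mitochondrial genes were left out. Clusters were named from marker lists, most of them chosen by the authors on these dogs. The lists, the tests and CD4 itself were chosen with earlier results of these data known, and the naming thresholds were chosen after looking at the clusters. Platelets, erythrocytes, mixed and unnamed clusters entered no comparison.

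The counts of each class were added up within a dog where it had 25 cells or more, and genes reaching 10 counts were tested with edgeR 4.0.16 (quasi-likelihood test, TMM) in R 4.3.3, with DESeq2 1.42.0 as an alternative. Classes of the same dog were compared with exact sign-flip permutation tests on log2(CPM + 1), adjusted over 25 pairs that include neighbors in the order of levels, for which no p is given since the order came from the same values, and shares between groups with exact Wilcoxon rank-sum tests, for which 7 against 10 dogs can give a p of 0.000103 at the least. Intervals and errors over cells cover counting error only, and the dog is the replicate. Besides CD4, most genes named were those of fixed lists (coreceptor and receptor signaling, ligands, lineage regulators, chromosomal neighbors, neutrophil immaturity): LCK, CD8A, DLA-DRA, CIITA, IL16, ZBTB7B, RUNX3 and LAG3, and in a comparison the 3 of a list with the largest absolute log2 fold change. ZAP70, CD3E, LCP2, CSK, TCF7, LEF1, BCL11B, RUNX1, GATA3, GPR162, LYZ, CSF1R and CAMP were named from the lists after their values had been seen. The 5 genes of highest correlation with CD4 over classes were named by a fixed rule. Leading genes of monocyte clusters (S100A12, LTF, THBS1, SERPINB2, MT2A, S100A5, ENSCAFG00000030286, ENSCAFG00000032615) were picked after their values had been seen. CD247, CD8B, DLA-DMB, DLA-DOB, DLA-DQB1, DLA-DRB1 and PTMS are not counted under these symbols and are not reported. Alternatives were other size factors, tools, gene filters, age as a term, a replicate block, each dog left out, doublets kept, other resolutions, CD4 among the clustering genes, other pseudocounts, depths and cell minimums. The procedures were tested on simulated data (16112 genes, 2 false calls). No sequence or coordinate of CD4 is given, since no genome of the build of the files was used here.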

Additional observations from a re-analysis of the deposited data

Results flagged for a closer look

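In 14 of 52 groups of 4 to 10 dogs 1 dog lay apart from the others by Dixon's test at the 95% level, which chance does in about 1 in 20 groups. H2 had the highest CD4 of the healthy dogs in CD4 T cells (289 CPM, the others 155 to 210 CPM), naive cells (314 CPM, the others 177 to 195 CPM), Th1-like cells (278 CPM, the others 147 to 202 CPM) and cells of no subset (378 CPM, the others 165 to 252 CPM). H7 lay apart in effector CD8 T cells (76.0 CPM), conventional dendritic cells (26.9 CPM) and B cells (14.8 CPM), and in the share of CD4 UMIs held by neutrophils (87.6%) and by CD4 T cells (5.38%). H6 had the lowest monocyte value (46.9 CPM, the others 86.0 to 110 CPM) and the highest in eosinophils and basophils (147 CPM, on 7 UMIs). Among OS dogs, OS3 lay above the others in other monocytes (73.9 CPM, the others 16.1 to 40.8 CPM), OS7 in conventional dendritic cells (16.4 CPM) and OS8 in B cells (3.17 CPM).

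CD4 was also counted in cells that entered no comparison. Clusters of mixed droplets held 168 CPM, platelets and erythrocytes 50.3 CPM, unnamed myeloid cells 10.0 CPM and unnamed T cells 1.22 CPM, each pooled over dogs. B cells pooled over dogs held 2.11 CPM, so the unnamed T cells were not above that background.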

How the results depend on the processing

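Of 252 alternative values, 235 kept their direction and their side of the threshold or stayed within 1.5 times a count, 9 reversed and 8 others changed a call, a count or a size. Leaving out 1 dog at a time, the log2 fold change of CD4 between OS and healthy dogs lay between -0.80 and 0.015 over all cells, -0.97 and 0.012 over myeloid cells, -0.18 and -0.08 in neutrophils, -0.20 and -0.02 in monocytes and -0.26 and -0.15 in CD4 T cells, and CD4 was called in none of these fits. The highest of both are the values without H7, and DESeq2, which replaced 1 outlying CD4 count by its own rule, gave 0.020 over all cells. Without H7 the log2 fold change was also reversed in dendritic cells (0.55), conventional dendritic cells (1.69), Th17-like cells (-0.0057) and effector CD8 T cells (0.24), none of them called, and it was -0.25 in CD8A-high T cells (-1.22 with H7), -0.54 in plasmacytoid and precursor dendritic cells (-1.66 with H7) and -0.58 in B cells (-1.45 with H7). Differences in percentage points between OS and healthy dogs without H7 were 0.055 for the share of monocytes with a CD4 UMI (-0.16 with it), -1.53 for that of neutrophils and -3.27 for that of CD4 T cells. For the share of a dog's CD4 UMIs they were 3.91 in neutrophils (-4.26 with it), -9.05 in CD4 T cells and 4.78 in monocytes. In CD4 T cells the share with a CD4 UMI differed by -2.91 points at 1000 UMIs, by -6.76 unthinned and by -4.32 at 2000 UMIs, and the latter pair missed the unadjusted threshold. The lower CD4 of monocytes against CD4 T cells missed it per cell (-0.18), and that of PMN-MDSC-like cells passed it at 10 cells (-7.66). Without H7 the differences between classes were -7.81 for PMN-MDSC-like cells against neutrophils, 5.03 for M-MDSC-like cells against other monocytes, 4.46 for neutrophils and -1.09 for monocytes against CD4 T cells. At a resolution of 0.5 no cluster kept the M-MDSC name, so that comparison has no value there. With age as a term the log2 fold changes were -0.66 over all cells, -0.86 in myeloid cells, -0.12 in neutrophils, -0.04 in monocytes and -0.22 in CD4 T cells.

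Healthy and OS dogs share the numbers 1 to 7, but the numbers mark different animals and did not pair them, since the correlations of same-numbered dogs ran from -0.23 to 0.27 and 1 of 7 numbers correlated best with its own. The fits with the replicate block held the dogs numbered 1 to 7 of each group, so OS8 to OS10 were left out of them. In these fits the log2 fold change was -0.42 over all cells, -0.46 in myeloid cells, -0.18 in neutrophils, -0.11 in monocytes and -0.28 in CD4 T cells. They called 9 genes in neutrophils (0.0946% of those tested), where the main fit called 0. The same dogs were not fitted without the block, so the block and the dogs left out cannot be told apart. DESeq2 called 3 genes over all cells, 1 in myeloid cells and 2 in monocytes, where edgeR called 0. Classes with 25 to 66 CD4 UMIs in all, such as eosinophils and basophils, conventional dendritic cells and B cells, hold too few counts for their fold changes to be read.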
